A study of Mus musculus with 7 samples.

Results

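Accessible coding exons away from promoters were examined in mammary tumour cells of mice. Accessibility was measured by ATAC-seq, in which a transposase cuts DNA that is not held closed by nucleosomes and adds sequencing adapters to the fragments. Intervals of 2 peak lists that overlapped or touched were merged into union regions, and a region was kept when its midpoint lay in the coding sequence (CDS) of a protein-coding gene and more than 2500 bp from every transcription start site (TSS). Of 119215 union regions, 1247 met this rule, and these are called distal coding exon regions. Accessibility itself played no part in the choice beyond the presence of a peak.

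The tumours arose in C57BL/6 mice with the MMTV-PyMT transgene, in which the mouse mammary tumour virus promoter drives the polyoma middle T oncoprotein in mammary epithelium. All animals also carried Dll1-mCherry, a reporter of the Notch ligand gene Dll1 built on a bacterial artificial chromosome. Dissociated tumours were depleted of cells with the surface proteins CD45, CD31 or Ter119, and the remaining cells were sorted by mCherry into Dll1+ and Dll1- cells. No treatment was named for either group. The Dll1+ group had 3 samples and the Dll1- group 4 samples, from 4 tumours of which 3 gave both groups, and the age of the animals was not given in the sources used here. The authors deposited 1 pooled list per group, so the spread between tumours was not measured here and no test was run. Promoters of 12 of 12 epithelial marker genes were open in both lists. Promoters of 2 of 16 immune, 3 of 12 endothelial and 4 of 14 fibroblast marker genes were open in the Dll1+ list, against 3, 5 and 9 in the Dll1- list. Of the 21951 protein-coding genes, 59.7% had an open promoter in Dll1+ and 61.96% in Dll1- cells. The promoters of the immune marker Ptprc and the endothelial markers Pecam1 and Cdh5 were open in neither list. Those of Cd68, Cd14, Kdr, Flt1 and Esam were open in both lists, and those of Csf1r, Vwf and Eng in the Dll1- list only.

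Coding exons carry the amino acid code, and some of them also hold sites for DNA-binding proteins and can act as enhancers, known as exonic enhancers, of their own or a neighbouring gene. In such an exon the same bases serve both the codons and the binding site. Accessible stretches inside genes can also lie at an exon edge and extend into the flanking intron.

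The following windows of 201 bp show what such regions look like. Each is centred on the strongest summit of its region, that of the list in which the region ranked higher by fold enrichment, and printed 5′ to 3′ on the strand of its gene in GRCm38.p6, with coding bases in capitals and other bases in lower case. They stand for the 6 genes with 4 regions each, of which Garnl3 had the most per kb of coding sequence (chr2:32989416-32989616, minus strand), the strongest region in both lists (Kiz, chr2:146942028-146942228, plus strand) and the strongest in Dll1+ cells only (Rapgef5, chr12:117753358-117753558, plus strand). Baz2b (chr2:59969202-59969402, minus strand) stands for the regions in Dll1- cells only. Kif21a (chr15:90935653-90935853, minus strand) and Cd163l1 (chr7:140228618-140228818, plus strand) ranked higher in Dll1+ and in Dll1- cells, respectively, and Notch2 (chr3:98072699-98072899, plus strand) represents the Notch pathway. Windows with untranslated exon bases were passed over for the next region of the same kind.
Garnl3: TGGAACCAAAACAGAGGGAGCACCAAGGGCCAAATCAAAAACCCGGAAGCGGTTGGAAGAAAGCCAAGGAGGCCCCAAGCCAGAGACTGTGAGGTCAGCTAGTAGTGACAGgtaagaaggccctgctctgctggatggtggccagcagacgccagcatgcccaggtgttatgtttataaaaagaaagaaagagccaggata
Kiz: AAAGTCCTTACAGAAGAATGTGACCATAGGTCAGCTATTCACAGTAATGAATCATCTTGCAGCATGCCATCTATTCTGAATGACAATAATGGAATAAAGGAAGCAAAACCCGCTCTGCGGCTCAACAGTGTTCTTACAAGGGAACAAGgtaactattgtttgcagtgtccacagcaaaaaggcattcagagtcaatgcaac
Rapgef5: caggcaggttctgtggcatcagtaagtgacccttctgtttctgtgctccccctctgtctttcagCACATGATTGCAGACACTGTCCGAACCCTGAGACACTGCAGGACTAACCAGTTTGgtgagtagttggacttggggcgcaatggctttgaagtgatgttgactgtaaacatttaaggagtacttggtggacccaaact
Baz2b: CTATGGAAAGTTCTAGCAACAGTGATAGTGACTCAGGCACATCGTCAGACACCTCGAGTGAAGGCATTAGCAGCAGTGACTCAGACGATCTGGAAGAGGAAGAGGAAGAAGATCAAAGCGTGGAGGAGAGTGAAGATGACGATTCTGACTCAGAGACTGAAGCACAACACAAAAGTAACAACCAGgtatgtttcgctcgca
Kif21a: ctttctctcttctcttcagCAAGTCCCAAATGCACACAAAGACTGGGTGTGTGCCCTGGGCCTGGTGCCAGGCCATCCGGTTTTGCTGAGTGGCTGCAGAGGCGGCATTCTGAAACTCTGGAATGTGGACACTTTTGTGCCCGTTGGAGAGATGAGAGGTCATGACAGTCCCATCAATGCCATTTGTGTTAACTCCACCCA
Cd163l1: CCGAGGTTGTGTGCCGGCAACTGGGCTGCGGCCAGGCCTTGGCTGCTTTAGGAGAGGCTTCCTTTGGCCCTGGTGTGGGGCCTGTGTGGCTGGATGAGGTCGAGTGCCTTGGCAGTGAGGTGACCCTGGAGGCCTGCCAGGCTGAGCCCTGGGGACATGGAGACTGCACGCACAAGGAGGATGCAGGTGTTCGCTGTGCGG
Notch2: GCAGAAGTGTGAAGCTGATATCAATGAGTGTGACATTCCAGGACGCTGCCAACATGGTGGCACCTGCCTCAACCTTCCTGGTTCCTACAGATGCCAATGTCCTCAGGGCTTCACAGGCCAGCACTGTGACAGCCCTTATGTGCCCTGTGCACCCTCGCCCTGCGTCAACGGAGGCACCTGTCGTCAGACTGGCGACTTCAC
The Kiz and Garnl3 windows run from coding sequence across a splice donor into the intron, and the Rapgef5 window holds a whole short exon of 55 coding bases between introns. The Cd163l1 and Notch2 windows are coding throughout, with 201 of 201 bases in capitals.

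Most distal coding exon regions were accessible in both cell populations. In both lists 814 regions were found, or 65.3% (Wilson 95% interval 62.6 to 67.9%), against 66.4% of all union regions and 62.1% of regions in introns at the same distance from a TSS. The Dll1+ list alone held 119 regions, or 9.54% (8.03 to 11.3%), against 9.01% of all union regions and 10.9% of distal intron regions. The Dll1- list alone held 314 regions, or 25.2% (22.9 to 27.7%), against 24.6% and 27.0%. Each share of the distal coding exon regions thus lay near the backgrounds, and the intervals for Dll1+ only and Dll1- only regions held both background shares, while that for regions in both lists held the share of all union regions but not that of introns. Coding exon regions close to a TSS were more often in both lists, with 81.5% (80.0 to 82.9%) of 2864 regions. These intervals cover counting error only, since regions are not replicates and reads were not tied to single molecules by identifiers.

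**Figure D1:**
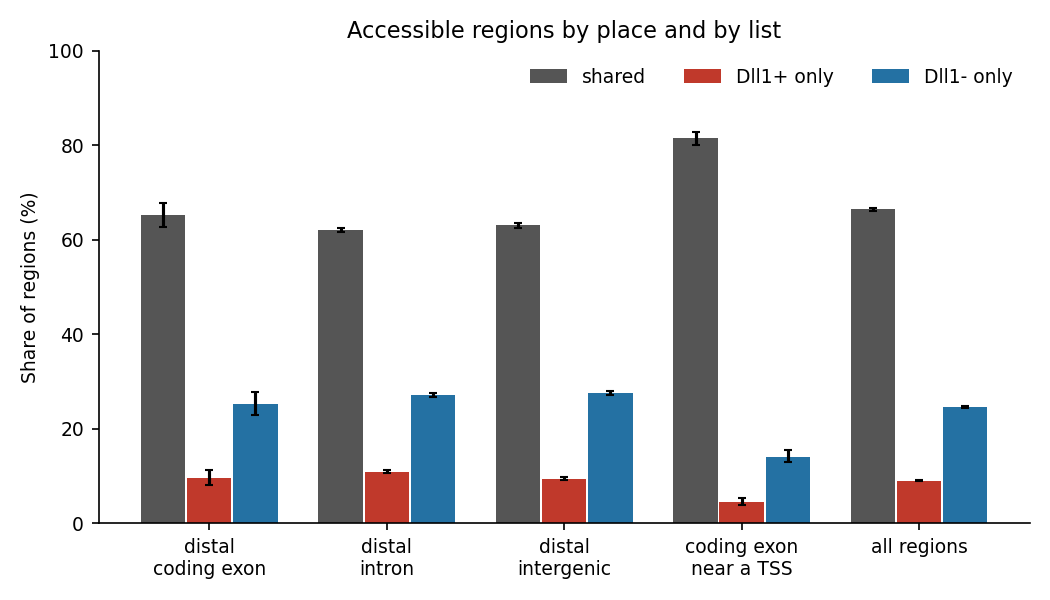
Share of accessible regions (%) in both lists (grey), only in Dll1+ (red) and only in Dll1- cells (blue), by place of the region midpoint, with Wilson 95% intervals as bars. Distal coding exon regions resembled distal intron and intergenic regions in these shares, while coding exon regions near a TSS had the tallest grey bar, at 81.5%.

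The lists differed in depth. The background recovered from the deposited values was 3.74 reads in Dll1+ and 7.20 reads in Dll1- cells. The weakest summit of a distal coding exon region had 11 reads in Dll1+ cells and 17 reads in Dll1- cells. Scaling the Dll1- reads to the Dll1+ depth, with the weakest p-value of the Dll1+ list as the limit, kept 146652 of 148923 Dll1- rows and left all 3 shares as they were, with 25.2% in the Dll1- list only. Scaling together with a stricter limit for both lists, under which the weakest 5% of Dll1+ rows fell, left 1181 regions, of which 11.1% were in the Dll1+ list only and 22.3% in the Dll1- list only. The shares of distal intron regions under that setting were 12.7% and 24.04%. The part of depth in the single-list shares was not tested beyond these settings. A region absent from a list is one that was not called at that depth.

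Membership of both lists went with strength. Strength is given as a percentile, the rank of a region's fold enrichment over local background among all rows of 1 list. Of the distal coding exon regions in the Dll1+ list, 62.8% (54.4 to 70.4%) of the 137 at or below its 25th percentile were also in the Dll1- list, and 297 of 297 above its 75th percentile were (at least 98.7%). Of those in the Dll1- list, 38.1% (31.1 to 45.6%) of 168 and 317 of 320, or 99.1% (97.3 to 99.7%), were also in the Dll1+ list in these bins. Distal intron regions followed the same steps, with 58.4% and 99.4% for the Dll1+ list and 35.8% and 97.3% for the Dll1- list. In the Dll1+ list the median percentile was 64.4 for regions in both lists and 29.9 for Dll1+ only regions. In the Dll1- list it was 66.1 and 33.1. Regions in both lists had a median width of 554 bp against 298 bp and 297 bp, a width to which the merging of rows from both lists contributes. Measured over the rows of 1 list, the regions in both lists had a median of 486.5 bp in Dll1+ and 490.5 bp in Dll1- cells.

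**Figure D2:**
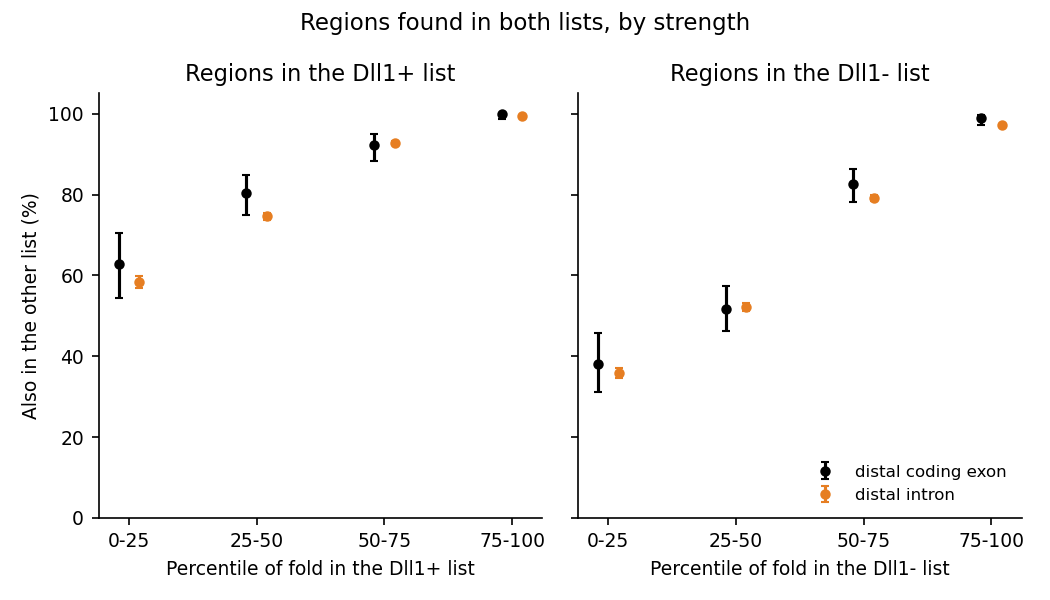
Share of the regions of the Dll1+ list (left) and of the Dll1- list (right) that were also in the other list (%), by bins of the percentile of fold enrichment in that list, for distal coding exon regions (black) and distal intron regions (orange), with Wilson 95% intervals. The coding exon share rises from 62.8% to 100% on the left and from 38.1% to 99.1% on the right.

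Regions were counted per base of each kind of sequence. Of the genome more than 2500 bp from a TSS, 19.6 Mb was coding, and it held 63.8 regions per Mb (95% Poisson interval 60.3 to 67.4). A region was counted here by its midpoint, and 650 of the 1247, or 33.2 per Mb, were at least 50% coding. Other exon sequence held 58.6 (56.3 to 61.0), introns 48.0 (47.6 to 48.5) and intergenic sequence 27.6 (27.3 to 27.9) per Mb. Density differed by the length of the coding exon, merged over overlapping transcripts. It was 47.3 (39.3 to 56.5) per Mb in exons of 1 to 100 bp, reached 83.8 (74.8 to 93.5) in exons of 201 to 500 bp and was 49.7 (42.2 to 58.2) in exons over 1000 bp. Last coding exons held 73.3 (64.7 to 82.7) and internal coding exons 61.7 (57.6 to 65.9) regions per Mb. First coding exons held 55.6 (38.0 to 78.5) and only coding exons 58.9 (42.2 to 79.9), and the intervals by exon role all overlapped.

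**Figure D3:**
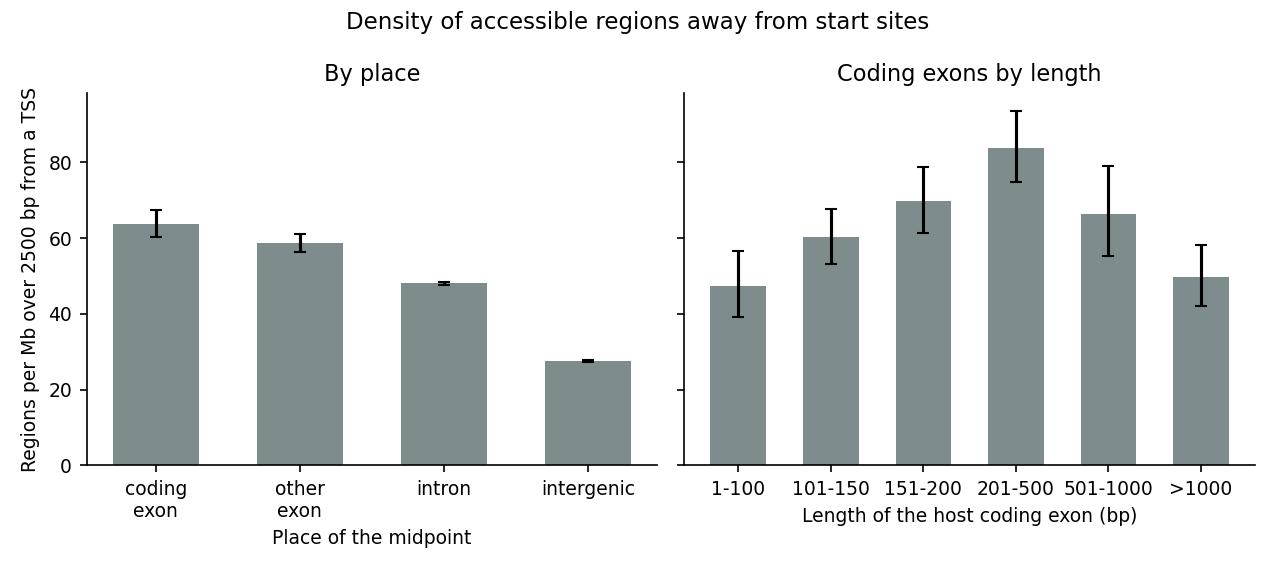
Accessible regions per Mb of sequence more than 2500 bp from a TSS, by place of the region midpoint (left) and, for coding exons, by exon length in bp (right), with exact Poisson 95% intervals as bars. Coding exons stand at 63.8 and introns at 48.0 per Mb, and the tallest bar by exon length is that of 201 to 500 bp.

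The regions were usually only partly coding. The median width was 440 bp, with a median of 50.9% coding bases, while the host exon had a median length of 190 bp and a longest of 10374 bp. The strongest summit lay in coding sequence in 922 regions (73.9%), 144 regions (11.5%) were wholly coding and 597 (47.9%) were less than 50% coding. At least 2 coding exons were touched by 86 regions, and up to 4 by a single region. By place in the gene's chosen transcript, 32 regions had their midpoint in the first coding exon, 871 in an internal coding exon, 263 in the last and 41 in the only coding exon, and the other 40 lay in coding exons of another transcript.

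The share found in both lists moved with how much of the region was coding. It was 74.9% (71.2 to 78.2%) in regions less than 50% coding and 54.2% (46.0 to 62.1%) in wholly coding regions. The share in the Dll1- list only moved the other way, from 17.4% (14.6 to 20.7%) to 34.7% (27.4 to 42.8%). A summit within coding sequence went with 28.5% (25.7 to 31.5%) Dll1- only regions, against 15.7% (12.1 to 20.0%) where the summit lay outside. Width moves with these shares, because a region wider than its exon cannot be wholly coding, and its part in them was not tested. By the role of the exon, both lists held 63.7% (60.5 to 66.9%) of regions in internal coding exons, 65.6% (48.3 to 79.6%) of those in first coding exons and 68.8% (63.0 to 74.1%) of those in last coding exons. The share was 78.0% (63.3 to 88.0%) for the 41 regions in only coding exons, whose interval overlapped the others.

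GC content was higher at these regions than in introns. The windows around the summits had a median GC content of 53.7%, against 48.8% for distal intron regions and 50.3% over all coding sequence at this distance. Median observed over expected CpG was 0.345 against 0.193. Strength was similar, with a median percentile of 56.0 for distal coding exon regions and 55.95 for distal intron regions. Local background was raised to a like degree, with a median of 1.20 times the genome background in Dll1+ cells and 1.13 times in Dll1- cells, against 1.26 and 1.12 times for introns. None of the 1247 regions lay in the interval around Dll1 where background was raised in both lists (chr17:15267775-15430284 in the Dll1+ list, 0 regions).

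The regions were spread thinly over genes. Of 15910 protein-coding genes with coding sequence at this distance, 1128 had a region, of which 1026 had 1, 86 had 2, 10 had 3 and 6 had 4. Genes with more regions had more eligible coding sequence, with a median of 0.817 kb for genes with none, 1.51 kb for genes with 1 and 6.31 kb for genes with 3 or more.

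Among the 6 genes with 4 regions were several that encode giant structural proteins. Syne1 encodes nesprin-1, which links the nuclear envelope to the cytoskeleton, and its 24.4 kb of eligible coding sequence gave 0.164 regions per kb. Dst encodes dystonin, a plakin that joins cytoskeletal filaments to adhesion sites, with 0.189 per kb. Utrn encodes utrophin, the relative of dystrophin that ties actin to the membrane, with 0.423 per kb. Herc2, an E3 ubiquitin ligase, had 0.312 per kb. By contrast Garnl3, whose product resembles GTPase-activating proteins of the Rap family, reached 4 regions within 2.17 kb, or 1.84 per kb, and Mei1, a gene needed for meiotic double-strand breaks, within 2.97 kb, or 1.35 per kb.

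All 4 regions of Mei1 were in the Dll1- list only, beside 25.2% of all distal coding exon regions. Of the 102 genes with at least 2 regions, 7 had all of them in the Dll1- list only, 1 in the Dll1+ list only and 41 in both lists. Most of these genes, 86, had 2 regions. Over all distal coding exon regions 65.3% were in both lists and 9.54% in the Dll1+ list only. Nothing is read from these gene counts against those shares and the 25.2%. The regions of Mei1 had fold enrichments of 5.61, 3.90, 4.15 and 6.83, from 31 to 55 reads at the summit, in coding exons 1, 7, 10 and 12 of 22. No distal intron region was called in Mei1, with 0 in either list, as in 3 of those 7 genes, Mei1 included. The other 9 of the 10 genes with the most regions had from 2 in Lrrn2 to 44 in Gse1. The AP-1 letters described below were present in the window of 1 of the 4, that at coding exon 1, but not wholly within coding sequence.

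The 4 regions of Dst differed widely in strength. The region in coding exon 36 of 98 was wholly coding over 865 bp and had a fold enrichment of 15.8 in Dll1+ and 14.7 in Dll1- cells, from 267 and 514 reads. The region in exon 53 had 17.9 and 16.4. Those in exons 44 and 56 were weak, with 3.17 in Dll1- cells only and with 3.38 in each list. The strong regions of Dst thus had near-equal ranks in both populations, at percentiles 93.8 and 93.0 for exon 36 and 96.4 and 95.3 for exon 53.

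In Garnl3, 2 regions were in both lists, and they leaned opposite ways. The region in coding exon 28 of 29, whose window is printed above, stood at percentile 44.5 in Dll1+ and 69.7 in Dll1- cells. That in exon 21 stood at 61.0 and 40.9. The first had 23 reads in Dll1+ and 59 in Dll1- cells and the second 31 and 34, before scaling for depth. Exon 26 held a Dll1- only region with a fold enrichment of 4.88 and exon 4 a Dll1+ only region at 2.05, near the bottom of its list at percentile 1.92.

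Herc2 leaned to Dll1+ cells in both of its shared regions. Percentiles were 76.8 in Dll1+ and 48.1 in Dll1- cells in coding exon 17 of 92, from 110 and 64 reads. In exon 31 they were 56.4 and 24.7, from 37 and 27 reads before scaling for depth. Utrn and Syne1 each had 2 shared and 2 Dll1- only regions. The strongest of Utrn lay in exon 16 of 74, with a fold enrichment of 11.2 in Dll1+ and 11.02 in Dll1- cells. Those of Syne1 were weaker, at 6.16 and 6.74 in exon 54 of 145 and 4.64 and 5.12 in exon 131.

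Genes with 3 regions included Lrrn2, a leucine-rich repeat membrane protein gene of neurons with a single coding exon. Its 3 regions lay wholly within that exon, between chr1:132937218 and chr1:132939386, and all were in both lists, with fold enrichments from 2.85 to 5.83 in Dll1+ and from 2.56 to 8.13 in Dll1- cells. Mark1, a kinase that acts on microtubule-associated proteins, had its strongest region in exon 13 of 18, at 9.71 and 12.8. Gse1 and Arhgef28, the second a guanine nucleotide exchange factor gene, had 1 shared and 2 Dll1- only regions each.

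The 5 strongest shared regions were chosen by their mean percentile in the lists, so a high rank in both populations follows from the choice. The region in exon 8 of 14 of Kiz, which encodes a centrosomal protein, had a fold enrichment of 27.2 in Dll1+ cells (272 reads) and 23.7 in Dll1- cells (352 reads). Asb13, a gene of the ankyrin repeat and SOCS box family, followed with 22.5 and 22.4 in exon 4 of 6. Scnn1a, which encodes the alpha subunit of the epithelial sodium channel, had 23.0 and 20.4 in exon 2 of 12. Nek4, a NIMA-related kinase, had 20.6 and 22.1, and Pdlim5, a PDZ and LIM domain protein, had 24.8 and 19.1. All 5 lay at or above the 97.7th percentile of each list. Cped1, named here after its values were seen, had 25.9 in Dll1+ cells (125 reads) and 14.6 in Dll1- cells (119 reads), at percentiles 99.8 and 93.0.

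The strongest regions in the Dll1+ list only were of middling strength. Rapgef5, which encodes an exchange factor for Rap GTPases, had a fold enrichment of 8.60 from 40 reads in exon 25 of 26. Myt1l, a zinc finger transcription factor gene of neurons, had 7.81 from 36 reads. Zswim5 and Tnfrsf14, the second a receptor of the tumour necrosis factor family, had 7.39 from 34 reads each, and Cdrt4 had 6.75 from 31 reads. Their percentiles ran from 61.0 to 72.3.

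The strongest of the 314 regions in the Dll1- list only had higher percentiles than the strongest of the 119 in the Dll1+ list only. Fam83a had a fold enrichment of 10.8 in its last coding exon, and Baz2b, a bromodomain protein gene, had 10.2 from 83 reads in exon 5 of 34. Nt5c1a, a cytosolic nucleotidase gene, had 8.94 from 86 reads. Dusp27, of the dual-specificity phosphatase family, had 8.05 from 69 reads, and 1500009C09Rik had 7.68 from 62 reads. Fam83a and Baz2b stood at percentiles 84.6 and 82.9 of the Dll1- list, above each Dll1+ only region in its own list. The Dll1- only class was larger and its list deeper, and median percentiles were 33.1 for Dll1- only and 29.9 for Dll1+ only regions. Among distal intron regions the highest percentiles were 93.99 for Dll1- only and 93.68 for Dll1+ only.

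Ranks of regions in both lists followed each other, with outliers on both sides. Across the 814 regions the percentiles gave a Pearson r of 0.791 and a Spearman coefficient of 0.813, as a description over regions that share the same pooled samples, and 0.767 and 0.789 over shared distal intron regions. The percentile was higher in Dll1+ cells in 342 regions (42.0%) and higher in Dll1- cells in 472 (58.0%), against 44.2% and 55.8% of shared distal intron regions. The Dll1+ minus Dll1- difference had a median of -1.77 and a middle range of -10.5 to 5.17. Differences over 20 points were found in 60 regions (7.37%) in favour of Dll1+ cells and 99 (12.2%) in favour of Dll1- cells, against 8.13% and 12.4% of shared distal intron regions.

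**Figure D4:**
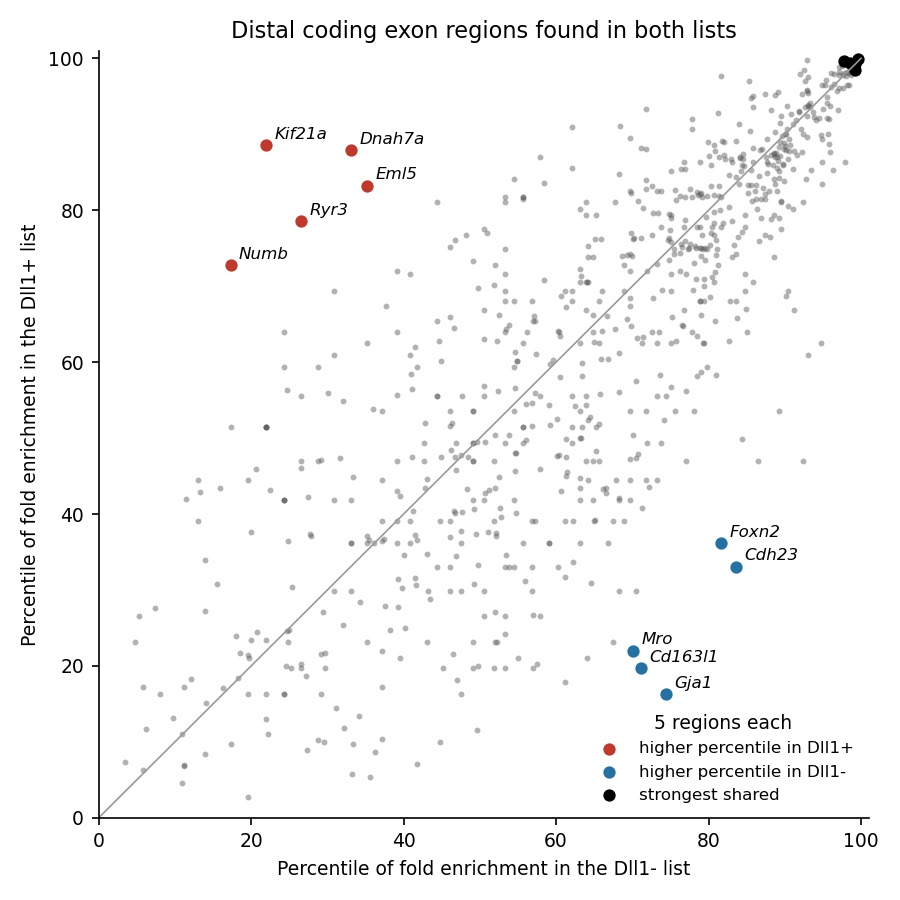
Percentile of fold enrichment in the Dll1+ list (vertical axis) against that in the Dll1- list (horizontal axis) for the 814 distal coding exon regions in both lists, with a line of equal ranks. The 5 regions furthest to each side are named by their gene (red, higher in Dll1+; blue, higher in Dll1-), and the 5 strongest regions (black) sit together at the top right.

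The largest lean to Dll1+ cells was in Kif21a, a kinesin motor gene. Its region in exon 32 of 33 had a fold enrichment of 13.1 from 61 reads in Dll1+ cells and 3.17 from 25 reads in Dll1- cells, at percentiles 88.6 and 21.9. It was followed by Numb, which encodes an inhibitor of Notch receptors that is passed unequally to daughter cells. The region in exon 6 of 9 of Numb had 8.65 from 40 reads in Dll1+ and 2.93 from 23 reads in Dll1- cells. Dnah7a, an axonemal dynein gene, had 12.9 and 3.78, Ryr3, a calcium release channel gene, 9.92 and 3.42, and Eml5, of a microtubule-binding family, 11.2 and 3.90.

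The largest lean to Dll1- cells was in Gja1, the gene of the gap junction protein connexin 43. Its single coding exon had a fold enrichment of 3.17 from 14 reads in Dll1+ cells and 8.17 from 66 reads in Dll1- cells, at percentiles 16.3 and 74.4. Cd163l1, of the scavenger receptor cysteine-rich family, had 3.38 and 7.56, and Cdh23, a cadherin of sensory hair cells, had 4.22 and 10.5. Mro had 3.57 and 7.42, and Foxn2, a forkhead transcription factor gene, had 4.43 and 9.88. The weaker side rests on few reads in both directions. It had 14 to 21 reads in Dll1+ cells for these 5 regions, and 23 to 31 in Dll1- cells for the 5 that leaned to Dll1+ cells, or 11.9 to 16.1 when scaled to the Dll1+ background.

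The AP-1 letters were more frequent in Dll1- only than in Dll1+ only regions. AP-1 dimers of Jun and Fos proteins bind TGACTCA or its reverse complement TGAGTCA, which was searched on both strands in the 201 bp around the strongest summit. It was present in 178 distal coding exon windows, or 14.3% (12.4 to 16.3%), against 18.1% of all union regions and 20.7% of distal intron regions. Dll1- only windows held it in 75 of 314, or 23.9% (19.5 to 28.9%), and Dll1+ only windows in 6 of 119, or 5.04% (2.33 to 10.6%). With rows at or above the median fold, the latter was 1 of 74, or 1.35%, and the former 26.7%. Windows of regions in both lists stood between them, with 11.9% (9.87 to 14.3%). The same order held in distal introns, where the shares were 32.5%, 4.33% and 18.3%.

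**Figure D5:**
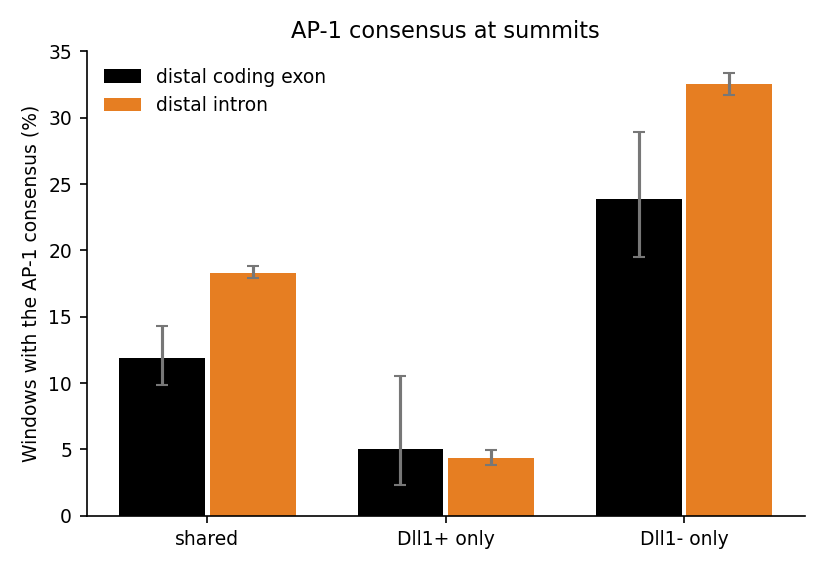
Share of summit windows (%) with the AP-1 letters, for distal coding exon regions (black) and distal intron regions (orange) in both lists, only in Dll1+ and only in Dll1- cells, with Wilson 95% intervals. The Dll1- only bars are the tallest, at 23.9% and 32.5%, and the Dll1+ only bars the shortest, at 5.04% and 4.33%.

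The same letters went with rank among regions in both lists. Of the 99 regions ranked over 20 percentile points higher in Dll1- cells, 27 held AP-1 letters, or 27.3% (19.5 to 36.8%). Of the 60 ranked as much higher in Dll1+ cells, 2 held them, or 3.33% (0.919 to 11.4%), and of the 655 between, 68 did, or 10.4%. Among the named regions, 3 of the 5 with the largest lean to Dll1- cells held AP-1 letters, in Gja1, Cdh23 and Foxn2 but not in Cd163l1 or Mro. Of the 5 with the largest lean to Dll1+ cells, 0 held them. By GC content of the window, the shares between 40 and 50% GC were 28.4% (19.4 to 39.5%) for Dll1- only and 5.88% (2.02 to 15.9%) for Dll1+ only regions. Between 50 and 60% GC they were 23.98% (18.19 to 30.9%) and 6.82% (2.35 to 18.23%), with intervals that just overlapped. Above 60% GC they were 17.6% (10.4 to 28.4%) and 0 of 17 (up to 18.4%), also overlapping. Promoters of 4 of the 14 fibroblast markers were open in Dll1+ and 9 in Dll1- cells, as given above, and the part of other cells in the AP-1 shares was not tested.

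AP-1 letters lay within codons as well as beside them. Per Mb of window, coding bases held 1135 matches in Dll1- only regions, 493 in regions in both lists and 323 in Dll1+ only regions, the last from 5 matches, against 120 per Mb over all coding sequence at this distance. Non-coding bases of the same windows held 1470, 799 and 119, the last from 1 match. Of 103 matches in coding sequence with a known reading frame, 0 began at codon position 1, 41 began at position 2 and 62 at position 3. Both strands of the motif begin with TGA, which is a stop codon when read in frame.

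The strongest Dll1- only regions with AP-1 letters in coding sequence show how the site sits among codons. Each line gives the match in capitals with 12 bases to either side, 5′ to 3′ on the strand of the gene in GRCm38.p6. They lie at chr15:58010029-58010059 on the plus strand in Fam83a, chr2:59969356-59969386 on the minus strand in Baz2b and chr4:123214161-123214191 on the plus strand in Nt5c1a. Those of Trank1 and Mcidas, the second a regulator of multiciliated cells, lie on the plus strand at chr9:111393758-111393788 and chr13:112999024-112999054.
Fam83a: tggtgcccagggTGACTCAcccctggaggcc
Baz2b: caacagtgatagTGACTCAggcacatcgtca
Nt5c1a: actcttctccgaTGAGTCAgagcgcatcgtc
Trank1: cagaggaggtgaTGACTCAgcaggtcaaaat
Mcidas: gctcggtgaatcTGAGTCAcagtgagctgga
The window of Baz2b printed earlier holds 3 such matches within its 185 coding bases. The match begins at codon position 2 in Fam83a, Trank1 and Mcidas and at position 3 in Baz2b and Nt5c1a. Fold enrichments in the Dll1- list were 7.15 for Trank1 and 6.64 for Mcidas.

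Other binding sequences were compared with distal introns in the same windows. The SP/KLF letters GGGCGG were present in 11.7% (10.04 to 13.6%) of distal coding exon windows, against 5.04% of intron and 13.3% of all windows. ETS letters (CCGGAAG) were present in 3.53% (2.64 to 4.70%) against 1.46% and 3.10%, and the E-box CAGCTG in 20.9% (18.8 to 23.3%) against 15.1% and 14.99%. TFAP2 letters (GCCNNNGGC) had 13.2% (11.5 to 15.2%) against 10.01% and 11.6%. Lower shares than in introns were found for TEAD (GGAATG), with 12.3% (10.6 to 14.2%) against 16.3% and 14.8% of all windows, and for FOX (TGTTTAC), with 2.57% (1.82 to 3.60%) against 4.35% and 3.72%. RUNX letters (TGTGGT) had 14.3% (12.4 to 16.3%) against 16.9% of intron and 15.3% of all windows, the latter within the interval. These are shares of letters and not bound sites, and GC content differs between coding exons and introns as given above.

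The other sequences were also compared between the single-list classes. SP/KLF letters were present in 6.72% (3.45 to 12.7%) of Dll1+ only and 14.01% (10.6 to 18.3%) of Dll1- only windows. TFAP2 had 12.6% and 15.6%, the E-box 17.6% and 18.2%, RUNX 15.1% and 12.7%, TEAD 10.9% and 11.8% and ETS 4.20% and 3.50%, each with overlapping intervals. FOX letters were present in 5.04% (2.33 to 10.6%) of Dll1+ only and 0.637% (0.175 to 2.29%) of Dll1- only windows, from 6 and 2 windows. CTCF was present in 0 of 119 Dll1+ only windows (up to 3.13%) and in 2.23% of Dll1- only windows. NF-kB had 3.36% (1.32 to 8.33%) and 4.46% (2.67 to 7.34%), and RBPJ (GTGGGAA), the DNA-binding partner of Notch receptors, 4.20% (1.81 to 9.46%) and 2.87% (1.51 to 5.36%), with overlapping intervals. GRHL (AACNNGTT) had 5.04% and 4.14%, and NF1 was present in 1 window in all. In distal introns Dll1+ only and Dll1- only windows had FOX in 6.29% and 3.34% and CTCF in 1.24% and 3.02%. SP/KLF was in 3.09% and 5.02% of them, each in the same order as in coding exons. TEAD, ETS and RBPJ had the other order there. RBPJ letters can share bases with NF-kB, and SP/KLF with TFAP2.

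Genes of the Notch pathway had 5 distal coding exon regions in 4 of 40 genes. Notch2, a receptor gene, had a region in coding exon 4 of 34 that was strong in both populations, with a fold enrichment of 13.5 from 91 reads in Dll1+ cells and 14.6 in Dll1- cells. Notch3, another receptor gene, had 2. That in exon 24 of 33 was in both lists at 10.1 and 10.9, and that in its last coding exon was weak, at 2.86 in Dll1- cells only, with AP-1 letters at its summit. The region of Numb, the inhibitor, is described above, and that of Ep300, a coactivator of Notch transcription complexes, stood at 7.18 in Dll1+ and 3.29 in Dll1- cells. The list held 80.3 regions per Mb (26.1 to 187), an interval that includes the 63.8 of all coding sequence. Of the 38 NF-kB pathway genes 1 had a region, or 26.5 per Mb (0.671 to 148). Nfkb2, which encodes the p100 precursor of the p52 subunit, had a weak Dll1- only region in exon 13 of 22, with a fold enrichment of 2.51.

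Luminal genes had 4 regions in 3 of 30 genes, or 193 per Mb (52.6 to 495), an interval that includes the 63.8 of all coding sequence. The list of 12 epithelial markers had 3 of these same regions, in Epcam and Cdh1, or 346 per Mb (71.4 to 1011). That interval lies above 63.8 but rests on 3 weak regions in 2 genes with 0.00867 Mb of coding sequence. The lists overlap, and nothing is read from this density. Epcam, an adhesion molecule gene, had a region in exon 3 of 9 at 2.86 in Dll1+ and 3.19 in Dll1- cells and a Dll1- only region in exon 7 at 3.30. Erbb2, the receptor tyrosine kinase gene also known as HER2, had a region in exon 20 of 27 at 4.14 and 5.52, at percentiles 31.2 and 55.9. Cdh1, which encodes E-cadherin, had a Dll1- only region at 2.87. The basal list of 25 genes had 1 region, or 20.9 per Mb (0.528 to 116), in the hemidesmosome integrin gene Itgb4, at 3.42 in Dll1- cells only.

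Matrix and cytoskeletal genes held many regions by number, but their densities had intervals that included the 63.8 per Mb of all coding sequence. Collagen, laminin and other matrix genes had 15 regions in 11 of 55 genes, 12 in both lists, 0 in the Dll1+ list only and 3 in the Dll1- list only, at 74.0 per Mb (41.4 to 122). Over all distal coding exon regions 65.3% were in both lists, 9.54% in Dll1+ cells only and 25.2% in Dll1- cells only, and nothing is read from the class counts of this or the other gene lists against these shares. Among them, the 1690 bp region in Lamb1, a laminin beta chain gene, had 10.6 and 11.2, and Col4a4, which encodes a basement membrane collagen, had 12.9 and 7.68 in its last coding exon. Hspg2, the gene of perlecan, had 5.91 in Dll1+ and 12.6 in Dll1- cells in exon 2 of 97. Col6a3, a collagen VI gene, had 2 shared regions, with 2.99 and 3.89 in exon 36 of 40 and 6.96 and 7.95 in exon 34. Giant cytoskeletal genes had 29 regions in 15 of 33 genes, with 17 in both lists, 1 in the Dll1+ list only and 11 in the Dll1- list only, beside the same 65.3%, 9.54% and 25.2% of all regions, at 76.4 per Mb (51.2 to 110). Beside the genes above, Syne2 had a shared region at 16.6 and 16.7 in exon 87 of 115, and Ank2, an ankyrin gene, one at 5.91 and 8.99. Ttn, the titin gene, had 2 Dll1- only regions and Macf1, a plakin gene, 1 of each single-list class.

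Chromatin regulator genes had 9 regions in 8 of 44 genes, of which 6 were in both lists, 3 in the Dll1+ list only and 0 in the Dll1- list only, at 57.2 per Mb (26.2 to 109) against 63.8 overall. Over all distal coding exon regions the single-list shares were 9.54% and 25.2%, and 9 regions are too few to set apart from them. The Dll1+ only regions were those of Srcap, a remodelling ATPase gene, at 5.70, Tet3, a methylcytosine dioxygenase gene, at 4.43 and Kmt2d, a histone methyltransferase gene, at 2.28. Srcap also had a shared region, at 5.34 and 7.45. Trrap, of histone acetyltransferase complexes, had 11.5 in Dll1+ and 5.37 in Dll1- cells. Junction and polarity genes had 7 regions in 7 of 41 genes, or 49.7 per Mb (19.97 to 102.3), of which 3 were shared and 4 in the Dll1- list only, in Tjp1, Jup, Fat2 and Cdh1. The region of Llgl1, a cell polarity gene, had 14.8 and 16.6, and that of Dchs2, a cadherin gene, 16.7 and 12.4.

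Growth factor receptor genes had 10 regions in 9 of 40 genes, with 5 in both lists, 1 in the Dll1+ list only, in Tyro3, and 4 in the Dll1- list only, beside 65.3%, 9.54% and 25.2% of all regions. Their density was 102.1 per Mb (49.0 to 188), an interval that includes the overall 63.8. Ros1, a receptor kinase gene, had 2 of them, with 4.01 and 7.44 in exon 18 of 44 and 2.68 in Dll1- cells only in exon 6. Markers of cells other than epithelium also had regions. Spi1, which encodes the myeloid transcription factor PU.1, had a region in its last coding exon at 19.45 in Dll1+ and 19.55 in Dll1- cells. It had 122 and 235 reads, while the Spi1 promoter was open in neither list. The midpoint lay 2847 bp from the nearest TSS of any gene, close to the limit of 2500 bp. The other 15 of 16 immune markers had none, which left the list at 71.1 per Mb (1.80 to 396). Among 12 endothelial markers 4 had a region, or 153 per Mb (41.6 to 391). Eng, the endoglin gene, had 17.5 and 18.3, with 7.17% of the region coding. Kdr, a receptor for vascular endothelial growth factor, had 3.33 and 2.67, Tek had 4.86 in Dll1+ cells only and Vwf, the von Willebrand factor gene, had 5.37 in Dll1- cells only. Of 14 fibroblast markers 2 had 3 regions, or 120.4 per Mb (24.8 to 352). All 3 intervals include the 63.8 of all coding sequence. Pdgfrb had 3.85 in Dll1- cells only. The fibrillin gene Fbn1 had 7.60 and 8.66 in exon 39 of 65 and a Dll1- only region at 3.42 in exon 16. The percentiles were 97.7 and 98.0 for Spi1 and 96.0 and 97.1 for Eng, and which cells gave these reads was not tested.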

How the data were processed

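ATAC-seq was measured in Dll1+ (3 samples) and Dll1- (4 samples) tumour cells. The samples of each group were processed together by the authors with ENCODE's ATAC-seq pipeline, who deposited 1 optimal peak list per group, of 132872 and 148923 rows. The aligner, caller and thresholds were not given in the sources used here. The deposited values were, per row, the fold enrichment (a ratio over local background), the −log10 p-value and −log10 q-value, a capped score, and the offset of the summit. The score and the q-value were not used. Per the labels the build was mm10/GRCm38, and 0 rows extended past a chromosome end.

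Rows were merged into union regions with a minimum overlap of 1 bp or contact. TSSs and coding exons came from the comprehensive GENCODE M21 annotation, and sequences from GRCm38.p6, read with samtools 1.23.1. Coordinates are 1-based. Reads and backgrounds were recovered from fold and p-value under a Poisson model, which solved all rows but 1 and was tested on simulated data. The genome-wide background is the lowest in each list. Exon numbers follow 1 chosen transcript per gene, and 40 regions outside it have none. Distances were to the nearest TSS of any gene.

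Shares carry Wilson 95% intervals and densities exact Poisson intervals, which cover counting error only. No p-value was computed, since each group was 1 pooled list. Analyses used Python 3.11.15 with numpy 2.4.6, pandas 2.3.3, scipy 1.17.1 and matplotlib 3.10.9.

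The genes named were the 10 with the most regions, with ties taken by regions per kb, and the hosts of the 5 strongest regions of each class. The 5 shared regions with the largest percentile difference in each direction, list genes with at least 2 regions, and any Notch or NF-kB gene with a region were also named. Other list genes were named after their values were seen. The regions, gene lists and binding sequences were chosen with earlier results of these data known. Alternatives changed the TSS distance, the point placed in the exon, the coding share, the rows used, the overlap, the window and the transcripts.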

Additional observations from a re-analysis of the deposited data

How the results depend on the processing

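No paired analysis was possible because each group is 1 pooled list, even though some tumours gave both groups. Leaving out single samples was not run, for that reason. Of 68 alternative values, 55 stayed within 1.5 times the main count or within its interval and 13 moved. The rest of this paragraph gives those 13. Asking for at least 50% coding bases left 650 regions (33.2 per Mb), with 56.5% in both lists and 32.3% in the Dll1- list only. Rows at or above the median fold left 722 regions (36.9 per Mb) and an AP-1 share of 1.35% in Dll1+ only regions, from 1 of 74. These drops in number follow from using fewer regions or rows. Equal numbers of rows gave 22.4% in the Dll1- list only, and 1 threshold for both lists after scaling of depth gave 22.3%. A reciprocal overlap of 50% gave 62.5% shared. A TSS distance of 1000 bp gave 67.9 per Mb, and basic GENCODE transcripts 68.8 per Mb with 1801 regions. Windows of 50 bp each side of the summit gave AP-1 in 18.2% of Dll1- only regions, as shorter windows hold fewer bases. Scaling the Dll1- reads by 0.519 while keeping the weakest p-value of the Dll1+ list removed few rows, with 146652 of 148923 kept, and moved no value. The basic transcripts and the single threshold were chosen after seeing the data. For the other values that moved, the cause was not tested. The pooled lists and the lower depth of the Dll1+ list limit every statement on regions in 1 list only.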

Other observations

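The basic GENCODE annotation, which keeps fewer transcripts and so fewer start sites, gave 1801 regions, of which 65.2% were in both lists, 9.11% in the Dll1+ list only and 25.7% in the Dll1- list only.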
